A study of Mus musculus with 79 samples.

Results

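The genes described are the conjugating enzymes of 3 families, the glutathione S-transferases (GST), the UDP-glucuronosyltransferases (UGT) and the sulfotransferases (SULT). Members were all gene symbols of the 5 deposited count tables that begin with Gst and a class letter (a, k, m, o, p, t or z), with Mgst and a digit, with Ugt1, Ugt2 or Ugt3, or with Sult and a digit. The rule uses names and no measured value. It gave 38 members among 15198 symbols, with 22 GST, 10 UGT and 6 SULT genes. Of these, 34 were listed for liver in the light-dark part, 30 for kidney and 26 for lung. In constant darkness, 33 were listed for Per1,2 knockout livers and 34 for wild-type livers, and 22 members stood in all 5 tables.

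The tissues came from 3-month-old C57BL/6 mice kept for 4 h either at 6% oxygen or, as the control, in air (21% oxygen). Wild-type mice under light-dark (LD) cycles had this exposure in the light phase, at zeitgeber time (ZT) 4-8, or in the dark phase, at ZT16-20, and gave liver, kidney and lung. In the constant-darkness (DD) part, after 2 days without light, livers were taken from mice labelled Per1,2 double knockout (KO), with a pair of repressors of the circadian clock targeted, and from wild-type (WT) mice, at circadian time (CT) 4-8 or CT16-20. Each of the 20 groups held 4 libraries, but the KO group at 6% oxygen and CT16-20 held 3, so that 79 libraries were analysed. The labels do not name the deleted part of either gene, so Per1 and Per2 counts may come from outside it and cannot check the genotype. In air at CT4-8, Per1 stood at 20.0 to 35.6 CPM (counts scaled to library size) in KO livers and 16.1 to 38.4 CPM in WT livers, and at 6% oxygen at 15.0 to 21.3 CPM in KO livers and 45.3 to 84.7 CPM in WT livers. Per2 in air at CT4-8 stood at 4.88 to 11.3 CPM in KO livers and 5.30 to 9.95 CPM in WT livers. At 6% oxygen at CT4-8 it was higher in the libraries labelled KO, at 19.1 to 31.2 CPM against 2.94 to 10.8 CPM in WT livers, with no overlap. At CT16-20 the genotypes overlapped at both oxygen levels. Per2 there stood at 4.65 to 11.5 CPM in KO and 10.4 to 17.3 CPM in WT livers in air. At 6% oxygen it stood at 20.3 to 31.8 CPM in KO and 7.85 to 29.1 CPM in WT livers.

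Conjugating enzymes carry out the second phase of detoxification. GSTs couple electrophiles to glutathione, UGTs transfer glucuronic acid from UDP-glucuronate to bilirubin, steroids and drugs, and SULTs transfer sulfate from the donor PAPS to phenols, steroids and amines, which makes the products water-soluble for export in bile and urine. In liver many of these genes are under nuclear receptors and the oxidative stress factor NRF2, and several follow the circadian clock through the PAR bZIP factors DBP, TEF and HLF.

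Levels are in CPM, scaled within each fit, and tests are edgeR's quasi-likelihood test with Benjamini-Hochberg adjustment over all genes of the fit. Changes are log2 fold changes ± SE, and a gene is called at an adjusted p under 0.05. Libraries held 1.44 to 6.74 M counts (median 3.02 M). Close copies share reads: 23 members shared at least one 50-base stretch of transcript with another gene, and 10 shared over 10% of such stretches. The shares of these 10 were 89.7% for Gsta1, 80.7% for Ugt1a6b, 64.2% for Gsta2, 62.3% for Gstp1 (with Gstp2) and 41.7% for Ugt2b5. They were 37.4% for Ugt2b38, 28.8% for Gstm3, 23.2% for Gstm1, 18.3% for Ugt2b37 and 11.5% for Gstm6 (most with Gstm3). The values of all 10 are therefore uncertain. Ugt1a6b ends in the same last exons as 8 other Ugt1a genes, and its count may hold reads of any of them. The strand setting is not stated, so counts of Sult1a1, Gstm5, Gstz1, Sult2b1 and Ugt1a6b cannot be told apart from those of genes on the opposite strand that overlap their exons. The mean correlation with the rest of the group was under 0.95 in 3 libraries, LD lung ZT16-20 21% D (0.948), KO CT4-8 6% b (0.946) and WT CT4-8 21% a (0.914). In the last of these, 20 of 30 members tested had their lowest value of the group. The like share over all genes is not given here, and the low correlation is over all genes. In bulk tissue, fewer cells of a type and less RNA per cell cannot be told apart. Hepatocyte, proximal tubule and alveolar markers were high in the tissues they name, with summed hepatocyte markers of 94732 to 158803 CPM in LD liver, 1197 to 2214 CPM in kidney and 20.5 to 224 CPM in lung.

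The 7 measured genes of the mu class of GST lie in one cluster on chromosome 3 (mm10, 107895821 to 108044894), a span of 149.1 kb. Of these, Gstm1, Gstm3, Gstm6 and Gstm7 were all called lower in KO than in WT liver in air at CT16-20, and their upstream sequences are shown for that reason. The sequences are the bases before the RefSeq start (GRCm38.p6), all read from the minus strand, cut to at most 250 bases and to those outside the GENCODE gene. Capitals mark runs of at least 10 bases that occur in another of the 4. Gstm1 lies at chr3:108017974-108018223, Gstm3 at chr3:107969284-107969424, Gstm6 at chr3:107943750-107943984 and Gstm7 at chr3:107931818-107932067.
Gstm1: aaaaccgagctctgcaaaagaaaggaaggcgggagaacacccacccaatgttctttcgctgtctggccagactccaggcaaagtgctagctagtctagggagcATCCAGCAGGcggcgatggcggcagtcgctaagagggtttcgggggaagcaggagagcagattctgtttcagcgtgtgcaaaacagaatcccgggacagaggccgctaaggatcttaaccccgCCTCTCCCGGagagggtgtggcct
Gstm3: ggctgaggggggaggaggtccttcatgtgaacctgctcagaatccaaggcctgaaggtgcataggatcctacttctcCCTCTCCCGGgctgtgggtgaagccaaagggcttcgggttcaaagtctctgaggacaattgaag
Gstm6: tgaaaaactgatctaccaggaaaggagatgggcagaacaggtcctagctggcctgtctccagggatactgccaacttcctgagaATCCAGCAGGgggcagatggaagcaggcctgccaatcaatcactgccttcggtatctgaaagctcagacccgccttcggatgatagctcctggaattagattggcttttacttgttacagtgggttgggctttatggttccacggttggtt
Gstm7: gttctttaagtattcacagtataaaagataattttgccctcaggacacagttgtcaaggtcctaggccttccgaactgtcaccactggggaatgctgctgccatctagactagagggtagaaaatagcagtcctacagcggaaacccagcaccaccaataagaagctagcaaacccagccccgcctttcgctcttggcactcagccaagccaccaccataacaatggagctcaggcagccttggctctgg
Gstm1 shared 1 run of 10 bases with Gstm3 and 1 with Gstm6. The longest run that Gstm7 shared, with Gstm6, had 9 bases. No alignment of the 4 was made.

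The 250 bases before the start were also searched, on both strands, for 4 short motifs in the 34 members with a RefSeq entry and in all 32851 promoters. The antioxidant response core TGACNNNGC, bound by NRF2, occurred in 3 members (Gsta3, Gstm5 and Mgst1) and in 10.16% of all promoters. The hypoxia core ACGTG occurred in 3 members (Gstp1, Ugt2b35 and Ugt2b37) and in 16.57% of all. The D-box TTATGTAA of the PAR bZIP factors occurred in Ugt2b1 and in 0.82% of all, and the E-box CACGTG, which contains ACGTG, in 0 members and in 6.02% of all. Gsta3 (chr1:21240335-21240584, plus strand) is shown because it is among the GST genes with the most counts in liver and holds the NRF2 core, here in capitals. A match is a description of letters, not of binding.
Gsta3: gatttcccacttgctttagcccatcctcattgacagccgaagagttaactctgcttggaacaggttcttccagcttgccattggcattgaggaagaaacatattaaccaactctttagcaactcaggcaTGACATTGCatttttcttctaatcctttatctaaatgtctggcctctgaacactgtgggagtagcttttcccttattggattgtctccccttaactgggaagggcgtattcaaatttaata

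Most of these genes were highest in liver. In air at ZT4-8, the measured GST genes summed to 15170 ± 808 CPM in liver, 3411 ± 106 CPM in kidney and 3733 ± 191 CPM in lung (SD, n = 4 each). Summed UGT levels were 2273 ± 242 CPM in liver, 1739 ± 205 CPM in kidney and 161 ± 11 CPM in lung, where Ugt1a6b was the UGT gene listed. Summed SULT levels were 448 ± 85.8 CPM in liver, 107 ± 48.6 CPM in kidney and 186 ± 36.3 CPM in lung. These sums come from separately scaled tables and cover members listed in each. Counts are not scaled to transcript length, so levels are not compared between genes. As shares of each family's counts, Mgst1, Gstm1 and Gsta3 held 42.7%, 21.4% and 19.9% of GST counts in liver, and Ugt1a6b held 64.7% of UGT counts and Sult1a1 96.6% of SULT counts. In kidney, Gstm1 held 33.9% of GST counts, Ugt3a2 held 41.5% of UGT counts beside 55.6% for Ugt1a6b, and SULT counts were divided among Sult1c2 (37.1%), Sult1a1 (32.0%) and Sult1d1 (27.5%).

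The tissue test used the 24 LD air libraries with a block for mouse, taken from equal time and replicate letter since the design text has 3 tissues per mouse but the labels do not tie the letters across tissues, and the 22 members that passed the filter on genes listed in all 3 tables. Between liver and kidney, 22 of 22 were called, against 65.0% of the 10308 genes tested. Of these 17 were higher in liver, against 31.9% of all genes, and 5 were lower in liver, against 33.0%. Between liver and lung, 18 of 22 were called, 16 higher and 2 lower in liver, against 78.7% of all genes called, 38.3% higher and 40.4% lower. Between kidney and lung, 19 were called, 11 higher and 8 lower in kidney, against 74.4% of all genes called, 36.3% higher and 38.1% lower. The median log2 difference of the GST members tested was 1.82 for liver over kidney, 2.45 for liver over lung and 0.53 for kidney over lung, beside medians of -0.00, -0.04 and -0.04 over all genes.

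Most GST genes were highest in liver, by very different factors. Gstm6, of the mu class, stood at 344 ± 65.1 CPM in liver, 2.62 ± 0.697 CPM in kidney and 8.75 ± 1.99 CPM in lung (SD, n = 8 each), which is 7.00 ± 0.17 for liver over kidney (adjusted p = 1.01e-21). Mgst1, a membrane-bound glutathione transferase and peroxidase, averaged 13025 ± 1712 CPM in liver, 160 ± 69.1 CPM in kidney and 598 ± 58.4 CPM in lung, with 6.45 ± 0.27 for liver over kidney (adjusted p = 4.74e-17). Gstz1, which isomerises maleylacetoacetate in tyrosine breakdown, averaged 1204 ± 119 CPM in liver, 348 ± 27.9 CPM in kidney and 59.0 ± 11.7 CPM in lung. In none of these did the liver libraries overlap with those of kidney or lung.

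A smaller set of GST genes was highest in kidney. Gsta2, an alpha class GST, averaged 102 ± 41.9 CPM in liver, 402 ± 33.9 CPM in kidney and 25.0 ± 7.36 CPM in lung. Gstt2, a theta class GST, averaged 78.0 ± 15.0 CPM in liver, 215 ± 23.1 CPM in kidney and 13.2 ± 2.80 CPM in lung, with -1.47 ± 0.11 for liver over kidney (adjusted p = 7.03e-12) and 4.03 ± 0.13 for kidney over lung (adjusted p = 8.76e-20). Mgst3 and Gstm5 were also lower in liver than in kidney. Gsto1, an omega class thioltransferase, was low in kidney, with 86.0 ± 20.0 CPM against 401 ± 105 CPM in lung. Gstm2 was the GST called lower in liver than in lung, at 72.4 ± 32.1 CPM against 111 ± 20.2 CPM, and these groups overlapped.

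Ugt1a6b averaged 2803 ± 270 CPM in liver, 871 ± 128 CPM in kidney and 130 ± 24.4 CPM in lung. Liver exceeded kidney by 1.69 ± 0.12 (adjusted p = 5.33e-12), and kidney exceeded lung by 2.75 ± 0.13 (adjusted p = 4.29e-16). Sult1a1, the main phenol sulfotransferase, averaged 912 ± 255 CPM in liver, 42.6 ± 6.54 CPM in kidney and 129 ± 25.8 CPM in lung, so that its order was liver, lung, kidney with no overlap. Sult1d1, which sulfates catecholamines, averaged 28.8 ± 14.7 CPM in kidney and 1.66 ± 0.471 CPM in lung (3.95 ± 0.35, adjusted p = 6.9e-10). Sult5a1, of unknown substrate, averaged 10.4 ± 5.58 CPM in liver, 1.53 ± 0.489 CPM in kidney and 15.6 ± 4.11 CPM in lung. Listed in the liver tables alone were Gsta1, Sult2a8, Ugt2b1, Ugt2b35, Ugt2b36 and Ugt2b5, in the kidney table alone Ugt2b37, and in the lung table alone Mgst2.

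**Figure D1:**
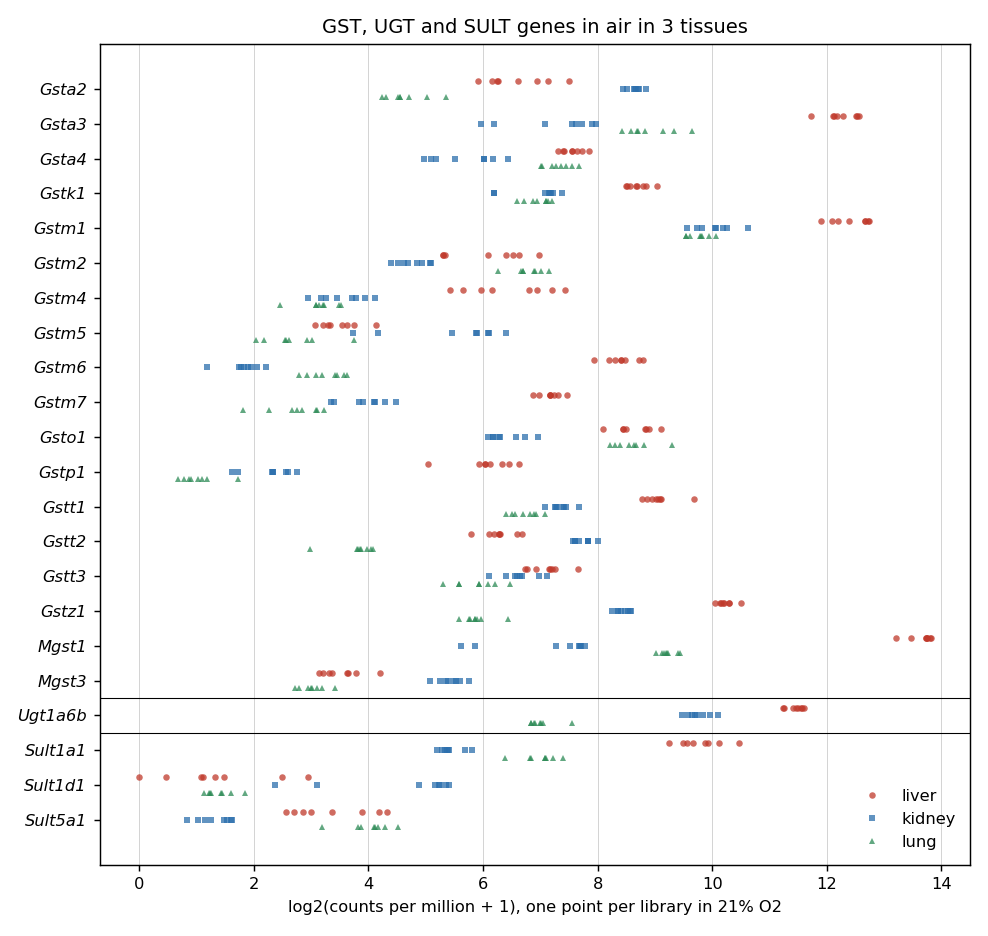
Level of the 22 members tested in all 3 tissues in 21% oxygen, as log2(CPM + 1) on the horizontal axis, with 1 point per library (8 per tissue; red circles liver, blue squares kidney, green triangles lung) and lines between the GST, UGT and SULT families. Mgst1, Gsta3, Gstm1, Ugt1a6b and Sult1a1 lie far to the right in liver, while Gsta2, Gstt2, Mgst3 and Sult1d1 lie to the right in kidney.

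Low oxygen moved few members in most settings. Over the 10 settings of tissue, time and genotype, 37 members were tested in 284 member tests, of which 22 were called. The share of all genes called differed by setting and stands in brackets below. In LD liver at ZT16-20 and KO liver at CT4-8 the share of members called was above it, and in the other settings below it. At least 1 call was made for 15 members, and 22 were called nowhere. Gstm2, Gstt2 and Sult1a1 were called 3 times each and Gstm6 2 times, and of these Sult1a1 alone was called in 1 direction throughout, lower at 6% oxygen. In LD liver, 1 of 32 members was called at ZT4-8 (9.64% of all genes) and 8 of 32, or 25.0%, at ZT16-20 (20.3%). In kidney the count was 1 of 28 at ZT4-8 (5.28%) and 1 of 28 at ZT16-20 (6.9%). In lung it was 1 of 22 at ZT4-8 (22.6%) and 2 of 22 at ZT16-20 (21.1%). In KO liver it was 4 of 30 at CT4-8 (5.59%) and 1 of 30 at CT16-20 (4.51%), and in WT liver 2 of 30 at CT4-8 (11.8%) and 1 of 30 at CT16-20 (9.83%).

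**Figure D2:**
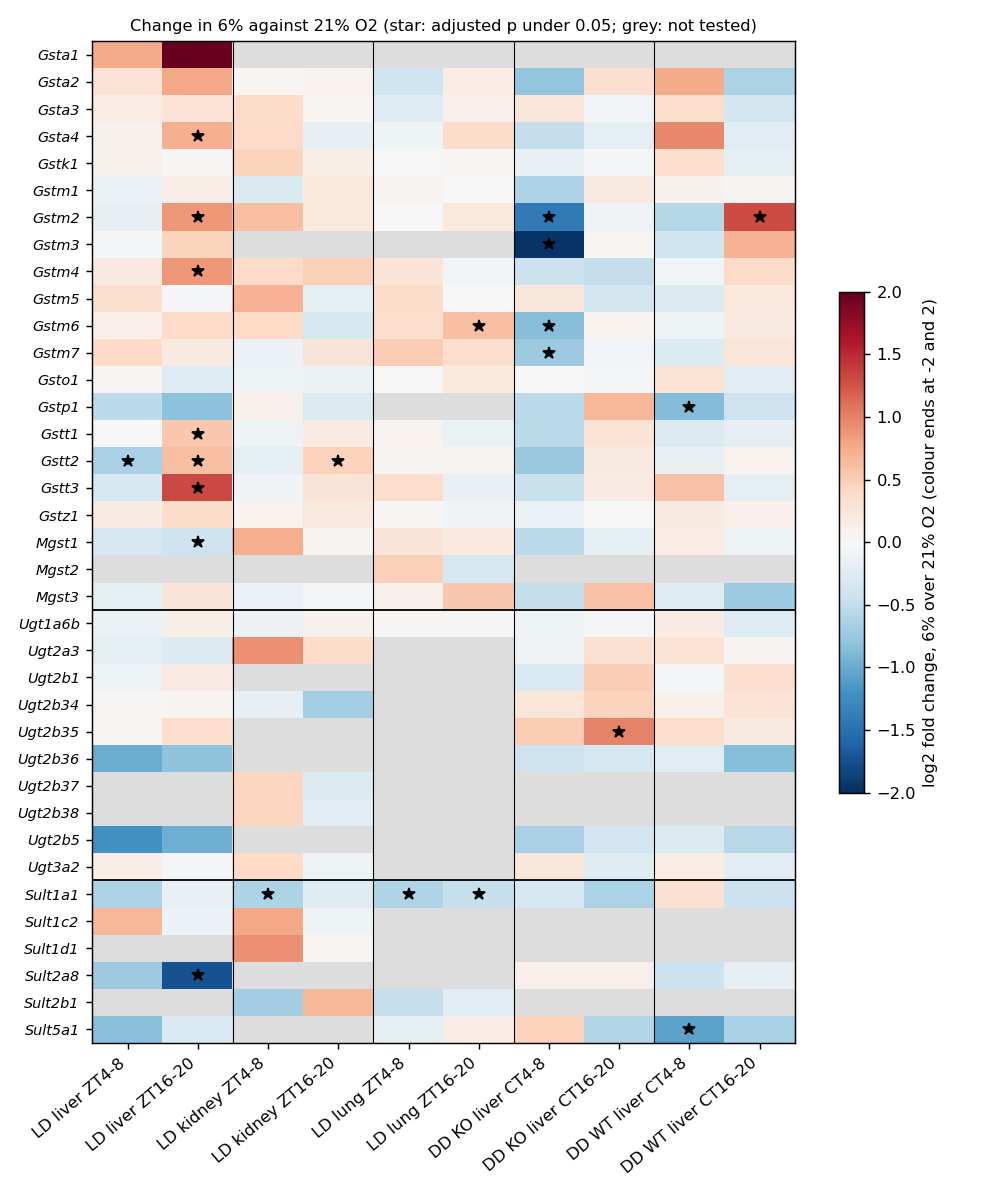
Log2 fold change at 6% over 21% oxygen (colour, red higher and blue lower at 6%, ends at -2 and 2) of the 37 members tested (rows, by family) in the 10 settings (columns), with grey where a member was not tested and stars at an adjusted p under 0.05. Stars cluster among GST genes in LD liver at ZT16-20 and in the Gstm rows of KO liver at CT4-8, and the row of Sult1a1 is blue in 9 of 10 settings.

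In LD liver in the dark phase, 6 GST genes rose at 6% oxygen: Gstt1, Gstt2 and Gstt3 of the theta class, Gstm2 and Gstm4 of the mu class and Gsta4 of the alpha class. Of 20 GST members tested at ZT16-20, 6 were higher and 1 was lower, 16 had a positive change, and their median was 0.37 beside -0.00 over all genes. Over all 32 members, 6 were higher, against 9.98% of all genes, and 2 were lower, against 10.3%. Leaving out 1 library gave 3 to 7 calls. At ZT4-8 the 20 GST members had a median of 0.06, with 0 higher and 1 lower.

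Gstt2 moved in opposite directions in the light and dark phases of LD liver. At ZT4-8 its libraries stood at 22.3, 29.3, 36.9 and 36.5 CPM at 6% oxygen, against 57.3, 42.8, 52.9 and 42.7 CPM in air. At ZT16-20 they stood at 46.2, 48.6, 68.8 and 62.7 CPM at 6% oxygen, against 30.1, 37.6, 39.6 and 42.1 CPM in air. The groups did not overlap at either time, with the 6% libraries all below air in the light phase and all above it in the dark phase. The change was -0.65 ± 0.17 at ZT4-8 (adjusted p = 0.0179) and 0.59 ± 0.17 at ZT16-20 (adjusted p = 0.0169). The difference between the times, 1.24 ± 0.24 (adjusted p = 0.00523), was the one call among the 32 members, against 2.06% of all genes, and it was kept under all 20 alternatives. The call at ZT4-8 was lost without 6% library A or air library A and that at ZT16-20 without 6% library C or air library A, with adjusted p up to 0.078 and 0.0685.

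Gstm4 and Gsta4 gave the firmest rises at ZT16-20. Gstm4, of the mu class, had 38.5, 55.5, 63.3 and 65.7 CPM at 6% oxygen, against 39.0, 34.2, 22.8 and 27.0 CPM in air, which is 0.86 ± 0.19 (adjusted p = 0.00277). Its 6% library A lay below the highest air library, and the other 3 lay above all of them. Gsta4, which conjugates the lipid peroxidation product 4-hydroxynonenal, had 111, 162, 171 and 217 CPM at 6%, against 93.8, 116, 102 and 91.2 CPM in air (0.71 ± 0.17, adjusted p = 0.00414), and again 1 of the 6% libraries reached into the air range. Both calls were kept under all 13 alternatives.

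The other theta and mu calls at ZT16-20 were less firm. Gstm2 had 57.9, 34.5, 45.7 and 44.6 CPM at 6% oxygen, against 21.2, 21.4, 21.7 and 36.5 CPM in air (0.86 ± 0.27, adjusted p = 0.0344). Gstt3 had 120, 202, 277 and 87.0 CPM at 6%, all above the air libraries at 78.6, 60.0, 57.9 and 78.5 CPM (1.32 ± 0.42, adjusted p = 0.0431). Gstt1, which dehalogenates small alkyl halides, had 303, 386, 568 and 295 CPM at 6%, against 258, 273, 238 and 297 CPM in air (0.54 ± 0.19, adjusted p = 0.0454). The 3 theta genes lie near each other on chromosome 10 (75774115 to 75837424), and library C of the 6% group had the highest value in all 3. Each of these 3 calls was lost without any of 6 single libraries or with the replicate block, Gstt3 also without a filter on low counts and Gstt1 with only the libraries compared in the fit, with adjusted p up to 0.0973 for Gstm2, 0.129 for Gstt3 and 0.226 for Gstt1. For Gstm2 these were air A, B and C and 6% A, C and D, and for Gstt1 and Gstt3 air A, B, C and D and 6% B and C.

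Falls at ZT16-20 were fewer. Mgst1 had 5156, 5433, 6022 and 4878 CPM at 6% oxygen, against 7524, 7886, 5198 and 7890 CPM in air (-0.41 ± 0.14, adjusted p = 0.0441). Air library C lay within the 6% range, and the other 3 air libraries lay above it. This call was lost in 10 of 13 alternatives, among them those without air A, B or D or 6% A, B or D (adjusted p up to 0.128). Mgst1 gave -0.34 at ZT4-8, with no call. Sult2a8, a liver sulfotransferase that acts on bile acids, was also called (-1.75 ± 0.38, adjusted p = 0.00296), and it was chosen after its values were seen, since its mean lay under the 10 CPM set for naming. Its libraries stood at 5.85, 4.25, 3.94 and 2.67 CPM at 6% oxygen, against 18.6, 19.9, 4.40 and 15.3 CPM in air, so 3 of 4 air libraries lay above the 6% group and C did not. Among periportal hepatocyte markers 1 of 5 and among endothelial markers 1 of 4 were higher at 6% in the same comparison, with summed periportal levels of 4314 to 7193 CPM at 6% and 5390 to 7086 CPM in air, and their part in these results was not tested.

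**Figure D3:**
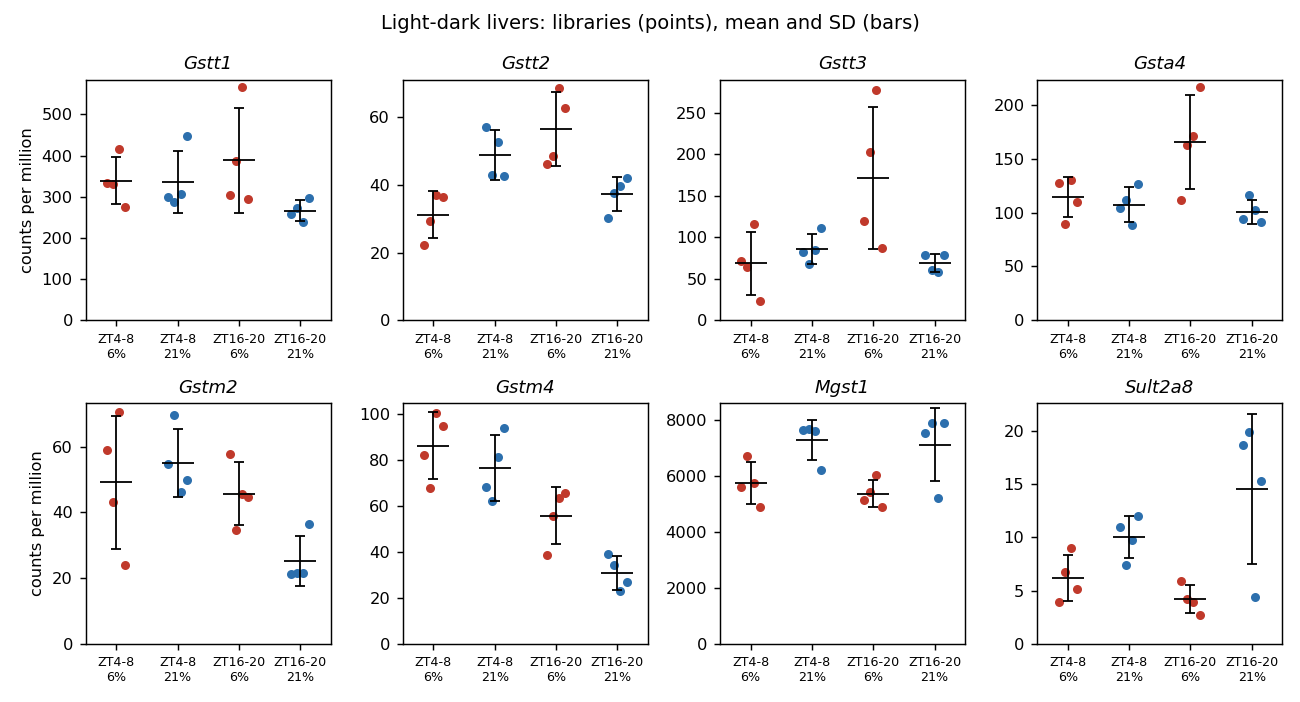
CPM in the LD livers for 8 members, with 1 point per library (red 6%, blue 21% oxygen) and black bars for the mean and SD of each group of 4. Gstt2 lies below air at ZT4-8 and above it at ZT16-20, and Gstm2 and Gstm4 are at their lowest in air at ZT16-20.

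Time of day in air moved 4 of 32 members in LD liver, against 5.91% of all genes. Gstm4 was lower in the dark phase, with 39.0, 34.2, 22.8 and 27.0 CPM at ZT16-20, against 68.3, 62.0, 81.4 and 94.0 CPM at ZT4-8 (-1.32 ± 0.19, adjusted p = 0.000151). Gstm2 was lower too, at 25.2 ± 7.52 CPM against 55.1 ± 10.3 CPM (-1.13 ± 0.27, adjusted p = 0.0205). Gsto1 was higher, at 267 ± 24.2 CPM against 185 ± 24.5 CPM (0.53 ± 0.12, adjusted p = 0.00846), and so was Ugt2a3, at 272 ± 25.7 CPM against 191 ± 19.9 CPM (0.51 ± 0.12, adjusted p = 0.0122). In none of the 4 did the times overlap. At 6% oxygen at ZT16-20, Gstm2 and Gstm4 stood at 45.7 ± 9.58 and 55.7 ± 12.3 CPM, between their air levels at the 2 times. Their calls for time and for oxygen share the ZT16-20 air libraries, so low values in that group enter both. The call of Ugt2a3 was lost without ZT16-20 library D (adjusted p = 0.0528), and that of Gstm2 without ZT4-8 library B or ZT16-20 A, B or C (adjusted p up to 0.083).

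In constant darkness, Gstm2 was the GST with the widest change in WT liver at CT16-20. Its libraries stood at 226, 251, 148 and 225 CPM at 6% oxygen, against 63.6, 67.8, 66.0 and 146 CPM in air, and all 6% libraries lay above all air libraries (1.31 ± 0.27, adjusted p = 0.00339). At CT4-8 they stood at 68.3, 69.3, 83.1 and 60.0 CPM at 6%, against 73.2, 86.3, 161 and 93.9 CPM in air (-0.56, not called). The difference between the times was 1.87 ± 0.38 (adjusted p = 0.0156), and it was lost in 1 of 20 alternatives, without CT16-20 air library b (adjusted p = 0.0508). It was 1 of 2 members whose response differed by time in WT liver, against 1.62% of all genes. The other, Gsta2 (-1.39 ± 0.35, adjusted p = 0.0468), had 184, 79.2, 80.5 and 109 CPM at 6% and 69.0, 48.1, 101 and 51.8 CPM in air at CT4-8, and 60.7, 66.9, 59.0 and 71.5 CPM at 6% and 103, 83.3, 98.1 and 117 CPM in air at CT16-20. At CT16-20 the 6% libraries all lay below air, and at CT4-8 the groups overlapped. The call of Gsta2 was lost in 15 of 20 alternatives, 13 of which left out 1 library (any of the 16 except CT4-8 air c and 6% b and c), with adjusted p up to 0.115.

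At CT4-8 in WT liver, Gstp1, the pi class GST, had 9.34, 8.16, 10.8 and 16.5 CPM at 6% oxygen, against 22.6, 21.2, 19.0 and 20.4 CPM in air (-0.86 ± 0.25, adjusted p = 0.0271). All 6% libraries lay below air. The call was lost without air library b or 6% library a, b or c (adjusted p up to 0.0928). Sult5a1 was the second call, with 2.33, 4.08, 5.16 and 3.31 CPM at 6% and 7.14, 12.1, 4.06 and 8.02 CPM in air (-1.07 ± 0.35, adjusted p = 0.0484), at a mean under the 10 CPM set for naming, so that it too was chosen after its values were seen. Without air library a, the one that stood apart, 2 members were called, and 1 was shared with the full set. Of periportal hepatocyte markers 3 of 5 were higher at 6% oxygen in this comparison, with sums of 9340 to 10452 CPM at 6% and 6344 to 8463 CPM in air, and their part was not tested.

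Time of day in air moved 3 of 30 members in WT liver in darkness, against 3.66% of all genes. Sult1a1 had 364, 486, 524 and 450 CPM at CT16-20, against 132, 278, 339 and 246 CPM at CT4-8 (0.87 ± 0.21, adjusted p = 0.0194). Ugt1a6b had 1796, 1658, 1758 and 1784 CPM at CT16-20, against 982, 1240, 1416 and 1250 CPM at CT4-8 (0.52 ± 0.14, adjusted p = 0.0419). Gstm4 was lower at the later time, as it was in LD liver, with 74.4 ± 16.2 CPM against 121 ± 29.4 CPM (-0.71 ± 0.19, adjusted p = 0.0428). The times did not overlap in any of the 3. Library a of CT4-8 held the lowest value of all 16 WT libraries for 13 of 30 members, and the like share over all genes is not given. Among them was Mgst1, at 1628 CPM beside 4932 to 5310 CPM in the rest of its group. Without this library 6 members were called, 3 of them the same. With only the libraries compared in the fit, 0 of the 3 were called (adjusted p up to 0.169). The call of Sult1a1 was also lost without CT16-20 library b or c, that of Ugt1a6b without CT16-20 a, b, c or d or CT4-8 b or d, and that of Gstm4 without any of these or CT4-8 c.

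In KO liver at CT4-8, 4 of the 7 mu class genes fell at 6% oxygen: Gstm2, Gstm3, Gstm6 and Gstm7. They were the 4 members called lower of 30 tested, against 2.76% of all genes, and 0 were higher, against 2.83%. Of 19 GST members tested, 16 had a negative change, and their median was -0.53 beside 0.01 over all genes. Gstm4 (-0.43) and Gstm5 (0.23) were not called. Summed neutrophil markers stood at 13.4 to 68.9 CPM at 6% oxygen and 2.53 to 9.84 CPM in air in the same comparison, with a median change of 2.40 over the 3 genes and no call, and their part was not tested. Library b of the 6% group is 1 of those that stood apart, and without it 4 members were called, 3 of them the same. Gstm6 had 72.3, 81.1, 90.5 and 80.9 CPM at 6%, against 165, 160, 124 and 135 CPM in air (-0.84 ± 0.15, adjusted p = 0.00192). Gstm2 had 32.7, 16.0, 25.0 and 29.8 CPM at 6%, against 84.2, 82.5, 41.4 and 67.1 CPM in air (-1.41 ± 0.26, adjusted p = 0.00313). In both genes every 6% library lay below every air library, and both calls were kept under all 13 alternatives.

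Gstm3 and Gstm7 followed with less margin. Gstm3 had 8.93, 21.1, 12.7 and 41.8 CPM at 6%, against 117, 53.2, 107 and 42.4 CPM in air (-1.95 ± 0.46, adjusted p = 0.0251), and Gstm7 had 37.8, 44.4, 33.8 and 56.5 CPM at 6%, against 80.9, 66.8, 81.3 and 53.8 CPM in air (-0.72 ± 0.18, adjusted p = 0.0212). The first pair of groups just failed to overlap and the second overlapped by 1 library. The Gstm3 call was lost without air a or c or 6% a, b or c, with the replicate block and with only the libraries compared in the fit (adjusted p up to 0.0903). The Gstm7 call was lost without air a or c or 6% a or c and with the replicate block (adjusted p up to 0.0821). Gstm1 gave -0.61 and just missed the threshold (adjusted p = 0.0532), with 1545, 2334, 2330 and 2672 CPM at 6% all below 3258, 3536, 3819 and 2945 CPM in air. At CT16-20 the same 4 genes changed by -0.07 (Gstm2), 0.04 (Gstm3), 0.07 (Gstm6) and -0.06 (Gstm7) with no call. The test of the difference between times called 0 of 30 members in KO liver by edgeR, against 0.0117% of all genes, with 9 members at an unadjusted p under 0.05 and 1 called by DESeq2. The test of the difference between KO and WT responses at CT4-8 called 0 of 31 members by edgeR, against 2.42% of all genes, with 10 at an unadjusted p under 0.05 and 2 called by DESeq2. At CT16-20 it called 0 of 31, against 0.0444% of all genes, with 5 at an unadjusted p under 0.05 and 0 called by DESeq2. The falls in KO liver are therefore not shown to differ from the response of WT liver or from that at CT16-20.

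Genotype in air moved 6 of 31 members at CT4-8, against 4.51% of all genes, and 6 of 31 at CT16-20, against 2.0%. At CT16-20 all 6 were lower in KO liver, against 1.03% of all genes, and 0 were higher, against 0.965%, and all 19 GST members tested had a negative difference with a median of -0.41 beside 0.01 over all genes. At CT4-8 there were 3 higher, against 2.26% of all genes, and 3 lower, against 2.24%, and the GST median was 0.12. Genotype coincides with the deposited table, so a batch and genotype cannot be told apart. Values in this comparison come from a joint fit of both tables and differ slightly from those above. The air libraries are also those of the oxygen and time tests. Calls of 1 gene in several tests, such as Gstm1, Sult1a1 and Ugt1a6b, therefore rest partly on the same libraries.

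Gstm1 had the firmest difference between genotypes. At CT16-20 in air it stood at 2207, 1471, 1376 and 1371 CPM in KO livers, against 4531, 4459, 3770 and 4093 CPM in WT livers (-1.39 ± 0.17, adjusted p = 2.92e-06), and all KO libraries lay below all WT libraries. At CT4-8 in air the 2 genotypes overlapped, at 3281, 3531, 3785 and 2951 CPM in KO and 4256, 2810, 3832 and 3335 CPM in WT (-0.07). In air, the KO libraries were thus lower at CT16-20 than at CT4-8 (-1.09 ± 0.18, adjusted p = 0.0341), the one call among 30 members for time of day in KO liver, against 0.0235% of all genes. That call rested on every library but CT16-20 a, since leaving out any other one of the 8, or adding the replicate block, ended it (adjusted p up to 0.318). The change in WT liver was 0.23 with no call, and the difference of the time effects between genotypes was not tested.

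The neighbours of Gstm1 went the same way at CT16-20 in air. Gstm6 had 128, 98.8, 86.9 and 85.6 CPM in KO livers, against 158, 188, 187 and 270 CPM in WT livers (-1.01 ± 0.21, adjusted p = 0.00514). Gstm3 had 29.2, 23.1, 19.7 and 10.1 CPM in KO livers, against 79.1, 90.3, 84.9 and 158 CPM in WT livers (-2.35 ± 0.51, adjusted p = 0.0155). Gstm7 had 75.8, 49.0, 61.7 and 49.5 CPM in KO livers, against 78.6, 87.3, 100 and 99.5 CPM in WT livers (-0.63 ± 0.17, adjusted p = 0.0453). No KO library reached a WT library in any of the 3. The Gstm3 call was lost without KO library c or WT library d (adjusted p up to 0.0589), and the Gstm7 call with the replicate block or without any library but KO a (adjusted p up to 0.157), while Gstm1 and Gstm6 were kept under all 12 alternatives. Gstm7 and Gstm4 were also lower in KO livers at CT4-8, at 70.7 ± 13.1 and 67.0 ± 15.1 CPM against 113 ± 12.4 and 120 ± 30.2 CPM in WT livers (-0.68 ± 0.17 and -0.85 ± 0.20, adjusted p = 0.0152 and 0.00908), with Gstm7 lost without KO library d (adjusted p = 0.0641).

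Gstp1 was lower in KO livers at both times in air. At CT4-8 it had 7.66, 6.50, 10.8 and 10.2 CPM in KO livers, against 22.4, 20.8, 19.0 and 20.1 CPM in WT livers (-1.22 ± 0.29, adjusted p = 0.00963), with no overlap. At CT16-20 it averaged 6.03 ± 3.63 CPM in KO livers and 13.9 ± 4.80 CPM in WT livers (-1.17 ± 0.32, adjusted p = 0.0484), at a mean just under the 10 CPM set for naming, and this value was likewise chosen after it was seen. Summed neutrophil markers at CT16-20 in air stood at 7.38 to 68.6 CPM over 3 listed genes in KO livers. In WT livers they stood at 0.863 to 1.44 CPM over 2 listed genes. In the joint fit, 2 of 2 such genes tested were called higher in KO livers. All marker sums in this paragraph come from the separate fit of each genotype, so their CPM scales differ. Of hepatocyte markers 1 of 5 was lower in KO livers at each time, with sums of 79040 to 104511 CPM in KO and 72245 to 87569 CPM in WT at CT16-20. Of pericentral hepatocyte markers 1 of 5 was lower in KO livers at CT16-20, with sums of 4051 to 5988 CPM in KO and 6198 to 6574 CPM in WT livers, which did not overlap. The part of any of these in these differences was not tested.

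Higher in KO livers at CT4-8 were 1 gene of each family. Ugt1a6b had 2166, 2055, 2103 and 2128 CPM in KO livers, against 971, 1216, 1419 and 1232 CPM in WT livers (0.80 ± 0.14, adjusted p = 0.000412). Sult1a1 had 548, 428, 713 and 336 CPM in KO livers, against 130, 272, 340 and 243 CPM in WT livers (1.04 ± 0.23, adjusted p = 0.0066). Gsta4 had 281, 256, 197 and 282 CPM in KO livers, against 28.8, 133, 157 and 122 CPM in WT livers (1.20 ± 0.32, adjusted p = 0.0289). Ugt1a6b and Gsta4 did not overlap between genotypes, and Sult1a1 overlapped by 1 WT library. WT library a was the lowest in all 3, and without it 7 members were called, among them all 6 of the full set. The Gsta4 call was lost without KO library a, b or d or with the replicate block (adjusted p up to 0.0713). Ugt1a6b lies on chromosome 1 at 88103252 to 88219003 (mm10), and its end is 3.197 Mb from the start of Per2.

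**Figure D4:**
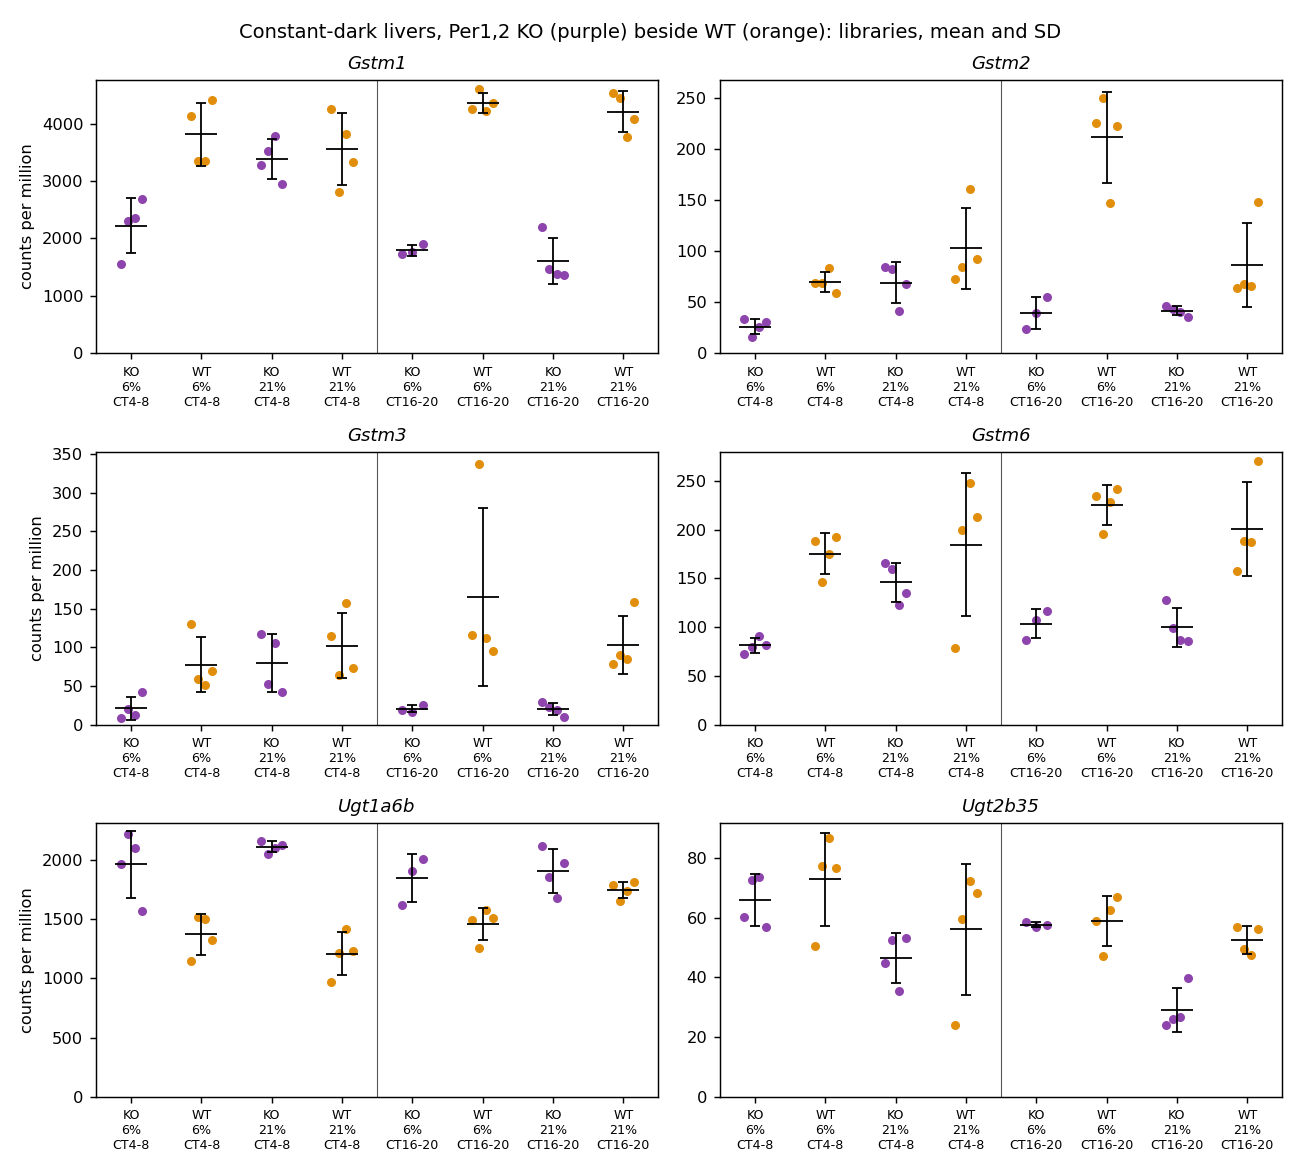
CPM from the joint fit in DD livers for 6 members, KO (purple) beside WT (orange) at each oxygen level and time, with 1 point per library and black bars for the mean and SD. Gstm1, Gstm3 and Gstm6 lie lower in KO than in WT livers at CT16-20 at both oxygen levels and at CT4-8 at 6% oxygen. At CT4-8 in air their genotypes overlap. Ugt1a6b lies higher in KO livers at CT4-8. The difference between genotypes within 6% oxygen was not tested.

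Among UGT genes, oxygen gave 1 call in the 10 settings. Ugt2b35, a liver UGT with unsettled substrates, had 59.4, 56.5 and 57.7 CPM in KO livers at CT16-20 at 6% oxygen, against 23.8, 25.8, 26.7 and 39.5 CPM in air, with all 6% libraries above air (0.99 ± 0.18, adjusted p = 0.00242), and the call was kept under all 12 alternatives. In the joint fit its air libraries stood at 23.9, 25.9, 26.8 and 39.9 CPM in KO livers, against 56.9, 49.7, 47.4 and 56.4 CPM in WT livers (-0.84 ± 0.22, adjusted p = 0.0385), a difference lost without any single library but KO d (adjusted p up to 0.124). On that same scale the 6% libraries stood at 58.7, 56.9 and 57.6 CPM in KO livers, against 59.0, 47.3, 62.8 and 67.0 CPM in WT livers, which overlapped. The oxygen and genotype calls of Ugt2b35 share the KO air libraries at CT16-20. The change of Ugt2b35 was positive in 6 of 6 settings, from 0.04 to 0.99. Ugt2b5 and Ugt2b36 were negative in 6 of 6 settings, from -1.21 to -0.27 and from -1.0 to -0.21, with no call, at mean levels of 8.83 to 15.8 CPM and 5.51 to 12.8 CPM. Ugt1a6b, which holds most UGT counts, ranged from -0.25 to 0.17 over 10 settings with no call. In LD liver at ZT16-20 it stood at 1791, 1877, 1761 and 1632 CPM at 6% oxygen and at 1567, 1677, 1574 and 1709 CPM in air, and in lung at ZT4-8 at 166, 155, 157 and 178 CPM at 6% and 167, 172, 147 and 157 CPM in air.

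Among SULT genes, Sult1a1 fell at 6% oxygen in kidney at ZT4-8 and in lung at both times. In kidney at ZT4-8 it had 29.7, 26.7, 30.8 and 25.0 CPM at 6% oxygen, against 44.9, 46.1, 42.6 and 39.5 CPM in air, with no overlap (-0.62 ± 0.14, adjusted p = 0.00947). In kidney at ZT16-20 it had 41.7, 43.2, 41.4 and 48.8 CPM at 6%, against 43.8, 45.6, 61.3 and 55.8 CPM in air, with overlap and no call (-0.24). In lung at ZT4-8 it had 89.7, 105, 99.9 and 108 CPM at 6%, against 149, 176, 107 and 177 CPM in air, where air library C lay within the 6% range (-0.59 ± 0.15, adjusted p = 0.00699). In lung at ZT16-20 it had 164, 111, 148 and 119 CPM at 6%, against 148.5, 183, 222 and 195 CPM in air, and the groups overlapped (-0.47 ± 0.15, adjusted p = 0.0326).

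The calls at ZT4-8 in kidney and lung were kept under all 15 and all 13 alternatives. That in lung at ZT16-20 was lost with the replicate block and without air B, C or D or 6% B or D (adjusted p up to 0.131), and air D is 1 of the libraries that stood apart. Without it 0 of the 22 members were called in that comparison. The change of Sult1a1 was negative in 9 of 10 settings, with the exception of WT liver at CT4-8 (0.31), and it reached -0.64 in KO liver at CT16-20 and -0.61 in LD liver at ZT4-8 without a call. In lung 3 of 3 neutrophil markers were called higher at 6% oxygen at ZT16-20, with sums of 223 to 388 CPM at 6% and 46.6 to 103 CPM in air, and summed endothelial markers stood at 2389 to 3365 CPM at 6% and 1600 to 2055 CPM in air. At ZT4-8 these endothelial sums were 3646 to 4243 CPM at 6% and 2022 to 2329 CPM in air. Their part in the fall of Sult1a1 was not tested.

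In lung, GST genes as a group changed little at 6% oxygen, with medians of 0.06 at ZT4-8 and 0.08 at ZT16-20 and changes between -0.39 and 0.60. Gstm6 was the GST called there. At ZT16-20 it had 12.4, 15.2, 14.05 and 20.8 CPM at 6%, against 10.7, 8.86, 13.2 and 7.83 CPM in air (0.60 ± 0.21, adjusted p = 0.042), with overlap, and the call was lost in 8 of 13 alternatives, which were DESeq2, the replicate block, only the libraries compared, and leaving out air A, B or D or 6% B or D (adjusted p up to 0.178). Time of day in air moved 1 of 22 members in lung, against 0.979% of all genes. Gsta3 had 845, 755, 1064 and 598 CPM at ZT16-20, against 542, 543, 447 and 503 CPM at ZT4-8, with no overlap (0.68 ± 0.14, adjusted p = 0.0167). This was lost without ZT16-20 library C or ZT4-8 library C or D, with the replicate block and with only the libraries compared in the fit (adjusted p up to 0.0931). Neutrophil markers were lower at ZT16-20 than at ZT4-8 in the same air libraries, at 46.6 to 103 CPM against 280 to 462 CPM, and their part was not tested. The test of the oxygen response by time called 0 of 22 members in lung by edgeR, against 0.255% of all genes, with 2 at an unadjusted p under 0.05 and 0 called by DESeq2.

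In kidney, Gstt2 rose at 6% oxygen in the dark phase, as it did in liver. At ZT16-20 it had 277, 277, 296 and 400 CPM at 6%, against 216, 251, 228 and 211 CPM in air, with no overlap (0.46 ± 0.13, adjusted p = 0.0379). The call was lost with the replicate block and without air A, C or D or 6% C or D (adjusted p up to 0.157). At ZT4-8 it had 188, 220, 261 and 208 CPM at 6%, against 253, 253, 216 and 284 CPM in air (-0.20, not called). The difference between the times was 0.66 and not called, and none of the 28 members was called in that test by edgeR, against 0.368% of all genes, with 4 at an unadjusted p under 0.05 and 0 called by DESeq2. Time of day in air called 1 of 28 members, against 1.09% of all genes. Gsta4 had 70.9, 78.7, 95.5 and 70.9 CPM at ZT16-20, against 49.3, 33.8, 39.7 and 36.6 CPM at ZT4-8, with no overlap (0.99 ± 0.17, adjusted p = 0.00299).

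The kidney comparisons depend on a split among the 4 air libraries at ZT4-8. Libraries B and D lay below the 14 other kidney libraries for 9 of 28 members and above them for 2. The like share over all genes is not given here, so the count is not read as particular to the members. Sult1d1 had 8.50 and 4.62 CPM in B and D, against 46.3 and 41.4 CPM in A and C, Mgst1 63.6 and 53.4 against 228 and 234 CPM, and Ugt3a2, a UGT whose human counterpart uses UDP-glucose and UDP-xylose, 400 and 341 against 828 and 908 CPM. Sult1c2, Gstk1, Gstm5, Gsta3, Gsta4 and Ugt2b37 were the other members below, and Gstm1 (1750 and 1355 against 1176 and 1199 CPM) and Ugt1a6b (1221 and 1114 against 1018 and 927 CPM) were those above. Summed proximal tubule markers stood at 13406 and 13602 CPM in B and D and at 10737 and 10091 CPM in A and C, and summed distal markers at 6531 and 6658 CPM against 7146 and 7944 CPM, whose part was not tested. At 6% oxygen, 1 of 5 proximal tubule markers was lower at each time.

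The letters are the submitters' and give no batch. Without B and D, 1 member was called at 6% oxygen at ZT4-8, which was Sult1a1, and 0 for time in air or for the difference between times. Without A and C, 12 members were called at ZT4-8, 10 higher and 2 lower at 6%, and 12 in each of the other tests. Calls over all genes were then 16.5% for oxygen, 12.6% for time and 9.11% for the difference between times, so calls rose over all genes too. The pairs were chosen after the values were seen, so these member counts are not read as a result about the members. The call of Gsta4 for time in air was lost without B and D (adjusted p = 0.0937), and that of Sult1a1 was kept without either pair.

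**Figure D5:**
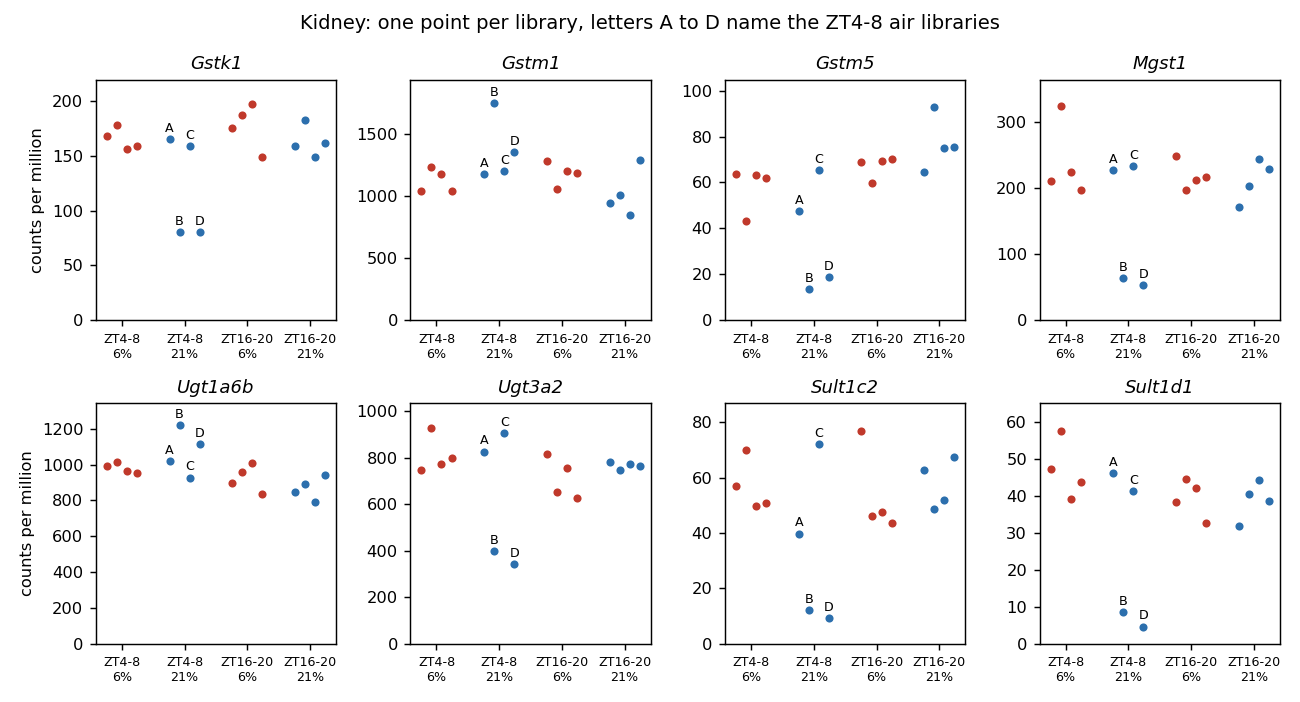
CPM in kidney for 8 members, with 1 point per library (red 6%, blue 21% oxygen) by time, and letters A to D over the air libraries at ZT4-8. Libraries B and D lie far below A and C for Gstk1, Gstm5, Mgst1, Ugt3a2, Sult1c2 and Sult1d1 and above them for Gstm1 and Ugt1a6b. The 3 other groups span narrower ranges, though not all are compact.

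Lists of genes that supply the co-substrates or regulate these enzymes were followed beside them. The glutathione and NRF2 lists share Gclc, Gclm and Slc7a11, and the NRF2 and regulator lists share Nfe2l2. A call of any of these genes counts in both lists. In lung, 4 of 10 measured genes of glutathione synthesis and recycling were higher and 0 lower at ZT4-8, and 4 were higher and 1 lower at ZT16-20. Of all genes, 11.2% were higher and 11.4% lower at ZT4-8, and 10.2% were higher and 10.9% lower at ZT16-20. Gclc, the catalytic subunit of the first enzyme of glutathione synthesis, stood at 373 ± 53.2 CPM at 6% oxygen, against 194.5 ± 44.9 CPM in air, at ZT4-8 (0.94 ± 0.16, adjusted p = 0.000156). At ZT16-20 it stood at 436 ± 84.2 CPM at 6%, against 198 ± 31.7 CPM in air (1.14 ± 0.16, adjusted p = 2.14e-05). Of NRF2 and its targets, 4 of 11 were higher and 2 lower at ZT4-8 with a median of 0.39, and 5 were higher and 2 lower at ZT16-20 with a median of 0.71, led by Txnrd1 at 1.35 ± 0.13 (adjusted p = 2.38e-08). Over the same comparisons 0 and 1 of 18 GST genes were higher.

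In LD liver at ZT16-20, Gsr, which recycles oxidised glutathione, rose by 0.84 ± 0.17 (adjusted p = 0.00108) and Gss, the second enzyme of glutathione synthesis, by 0.61 ± 0.16 (adjusted p = 0.0108), with 3 of 9 genes of the list higher and 0 lower. Of the sulfate donor list, 2 of 7 were higher and 1 lower, and the sulfate carrier Slc26a1 rose to 119 ± 11.3 CPM at 6% oxygen, against 66.8 ± 11.5 CPM in air (0.84 ± 0.13, adjusted p = 7.85e-05). Of the other lists there, 1 of 4 genes of UDP-glucuronate supply was higher, led by the transporter gene Slc35d1 (1.02), 2 of 8 genes of other conjugation reactions were higher, the methyltransferases Inmt (0.71) and Gnmt (0.43), and NRF2 and its targets gave 1 higher and 1 lower of 11. With 9.98% of all genes higher and 10.3% lower, 1 call in a list of this size is near the background. Of 14 regulators, 4 were lower and 0 higher at 6% oxygen at ZT4-8, where 9.64% of all genes were called in either direction. At ZT16-20, 1 was higher and 2 were lower. Among them, Dbp was lower at 6% oxygen at ZT4-8 (-2.74 ± 0.35, adjusted p = 0.000113) and higher at ZT16-20 (1.20 ± 0.38, adjusted p = 0.0405). Its response differed between times (3.94 ± 0.52, adjusted p = 0.000689). Nfe2l2, which encodes NRF2, fell at 6% oxygen in kidney at both times, in lung at ZT16-20, in WT liver at both times and in KO liver at CT4-8, by 0.53 to 1.34 on the log2 scale.

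In DD liver in air at CT16-20, 1 of 9 genes of glutathione synthesis and recycling, 1 of 4 of UDP-glucuronate supply and 2 of 11 of NRF2 and its targets were lower in KO than in WT livers, beside the 1.03% of all genes given above. Ugdh, which makes UDP-glucuronate, gave -0.88 ± 0.17 (adjusted p = 0.00198), Gclc -0.72 ± 0.17 (adjusted p = 0.0155) and Ephx1, the epoxide hydrolase, -1.01 ± 0.19 (adjusted p = 0.00207). Of these, Gclc is counted in both the glutathione and the NRF2 list. At CT4-8, Papss2, which makes the sulfate donor PAPS, was higher in KO livers at 154 ± 34.1 CPM (1.05 ± 0.22, adjusted p = 0.00338), beside the higher Sult1a1. The nuclear receptor gene Nr1i3, whose product CAR regulates UGT and SULT genes, rose at 6% oxygen in KO livers at CT4-8 (0.93 ± 0.17, adjusted p = 0.00217) and CT16-20 (0.64 ± 0.18, adjusted p = 0.0476), and its response differed from that of WT livers at CT4-8 (1.81 ± 0.29, adjusted p = 0.000526).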

How the data were processed

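The files hold raw read counts per gene, as deposited by the authors, in 5 tables with 1 column per library. Per the submitters' processing notes, bcl2fastq, cutadapt, STAR and HTSeq were used with build mm10. Tool versions, the gene annotation and the strand option: not given in the sources used here. No 2 libraries of a group held identical values (117 pairs compared).

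Each table was fitted on its own in R 4.3.3 with edgeR 4.0.16 (quasi-likelihood test, Benjamini-Hochberg adjustment over all genes tested). Genes passed a minimum count of 10 and a total of 15, and libraries were scaled by TMM. All groups of a table shared 1 fit. Genotype was tested in a joint fit of both DD tables, and tissue in a fit of the LD air libraries with the mouse as a block, taking equal time and replicate letter as 1 mouse. CPM scales differ between these fits. Replicates are separate mice, per the design text. The steps were tested on simulated data.

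Alternatives were RLE scaling, no filter, DESeq2 1.42.0, a replicate block, only the libraries compared, and leaving out each replicate. Leaving out kidney air libraries B and D, or A and C, was added after seeing the data. The replicate letters gave no clear pairing of the libraries. Same-letter deviations of 6% and 21% libraries correlated at -0.282 to 0.18, over 0.1 in 3 of 39 pairs. The same letter in different tissues gave -0.105 to 0.25, over 0.1 in 5 of 48. Low correlation between tissues cannot show whether equal letters mark 1 mouse.

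The text names called members with a mean of at least 10 CPM, up to 8 by smallest p for each oxygen comparison, 6 for each time, genotype or interaction test and 4 per family for tissue, and up to 3 called genes per pathway list. Other members are named for the reason given there. Members and lists were chosen with earlier results of these data known. Shared sequence and antisense overlap were computed from GENCODE vM21 transcripts, and promoters are from RefSeq.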

Additional observations from a re-analysis of the deposited data

Results flagged for a closer look

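A library stood far from the rest of its group by Dixon's 95% criterion in 14 of 129 groups of 4 examined. Chance flags about 1 in 20 independent groups. These groups are not independent, since family sums and members share libraries, and members were examined because they had been called. No excess over chance is therefore read from the count. Of family sums, UGT reached 2634 CPM in LD liver ZT4-8 21% A (others 2117 to 2171 CPM) and 2005 CPM in LD kidney ZT4-8 6% B (others 1797 to 1823 CPM). In lung at ZT16-20 it reached 245.6 CPM in 6% D (others 161.6 to 167.9 CPM) and 249.5 CPM in 21% C (others 153.0 to 167.5 CPM). It fell to 1307 CPM in WT CT4-8 21% a (others 2153 to 2285 CPM), a library low in many members. The GST sum was 3473 CPM in LD kidney ZT16-20 6% B (others 3835 to 3874 CPM) and 5360 CPM in LD lung ZT16-20 6% D (others 4524 to 4667 CPM).

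Single members with such a library were as follows. In LD liver at ZT16-20 in air, Gstm2 had 36.47 CPM in D (others 21.23 to 21.68 CPM) and Mgst1 5198 CPM in C (others 7524 to 7890 CPM). Gsto1 had 148.5 CPM in LD liver ZT4-8 21% D (others 193.8 to 201.8 CPM), and Gstt2 399.5 CPM in LD kidney ZT16-20 6% D (others 276.6 to 295.7 CPM). At CT16-20 in air, Gstm1 had 2194 CPM in KO library a (others 1359 to 1462 CPM). WT library d held 145.8 CPM of Gstm2 (others 63.62 to 67.76 CPM) and 155.6 CPM of Gstm3 (others 79.39 to 90.2 CPM).

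The response to 6% oxygen differed between the dark and the light phase by the interaction test for Gstt2 in LD liver (1.24 on the log2 scale), and between CT16-20 and CT4-8 in WT liver for Gstm2 (1.87) and Gsta2 (-1.39).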

How the results depend on the processing

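None of 67 named member results reversed under the alternatives run, and 40 were kept under all of them, 17 of the 44 outside the tissue comparisons. RLE scaling shifted the median of all genes by at most 0.011 (log2). The tissue counts stayed within 1.5 times under all alternatives, with or without the mouse block. The replicate block tied equal letters of separate mice within a fit. With it, the oxygen calls over 10 settings were 13 in place of 22. There were 4 in LD liver ZT16-20, 0 in kidney and lung at ZT16-20, 1 in WT CT4-8, 2 in WT CT16-20 and 2 in KO CT4-8. The block gave 0 calls for time in lung and KO liver and 1 for oxygen by time in WT liver. DESeq2 called 16 members for time over the 5 tables in place of 10 (3 in kidney, 2 in lung, 5 in WT and 2 in KO liver), 2 and 1 for oxygen in lung at ZT4-8 and ZT16-20, 1 for oxygen by time in KO liver and 2 for genotype by oxygen. With only the libraries compared, time gave 6 calls (0 in lung and in WT liver), and oxygen gave 2 in LD liver ZT4-8, 2 and 1 in lung, 1 in WT CT4-8 and 4 in WT CT16-20. Without the filter, WT CT4-8 and WT oxygen by time gave 1 each and KO CT16-20 gave 2. In kidney without air libraries B and D, time gave 0 calls, and without A and C, oxygen at ZT4-8, time and oxygen by time gave 12 each. The cause of these shifts was not tested.

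Leaving out 1 library moved the oxygen counts to 0 to 1 (LD liver ZT4-8), 3 to 7 (LD liver ZT16-20), 1 to 4 (kidney ZT4-8), 0 to 1 (kidney ZT16-20), 1 to 2 (lung ZT4-8), 0 to 3 (lung ZT16-20), 0 to 4 (WT CT4-8), 1 to 2 (WT CT16-20) and 2 to 5 (KO CT4-8). Time counts moved to 1 to 3 in kidney, 0 to 2 in lung, 0 to 6 in WT and 0 to 1 in KO liver, WT oxygen by time to 0 to 2, genotype at CT16-20 to 2 to 5 and genotype by oxygen at CT4-8 to 0 to 1. With 3 or 4 libraries a group at 1.44 to 6.74 M counts, members under about 10 CPM rest on few reads, and a missed threshold does not show equal levels.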
